A study of Homo sapiens with 12 samples.

Results

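The comparison described here is of RNA recovered with YTHDF2 from manganese-treated and from control U251-MG cells, 3 immunoprecipitation (IP) libraries of each, which are 6 of the 12 libraries of the series. The libraries are all those labelled with the YTHDF2 antibody, and none was left out of the comparison for its values. U251-MG is a human astrocytoma line that the labels call astrocyte. The manganese IP group came from cells in MEM with 2% serum and 100 µM manganese chloride, and the control IP group from cells in the same medium without added manganese. The other 6 libraries, 3 manganese inputs and 3 control inputs, hold RNA of the lysates before the IP and are set beside part of the IP values. They also enter the scaling and the estimate of spread behind the IP test. The comparison asks which transcripts made up a larger or a smaller share of the RNA recovered in the YTHDF2 IP after manganese. It is not corrected for the input, and input values are given for part of the genes and lists named. Where none is given, the IP change was not set against the input. No control-antibody IP is among the labels, and recovery that did not depend on YTHDF2 is contained in every value.

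YTHDF2 is a cytoplasmic reader of N6-methyladenosine (m6A), the most common internal modification of mRNA. It binds methylated transcripts and shortens their life, mainly by recruiting the CCR4-NOT complex, which removes the poly(A) tail. METTL3 and METTL14 with their partners write the mark, and ALKBH5 and FTO can erase it. In astrocytes, manganese is a toxic metal at high exposure and is known for inflammatory signalling, in which the kinase JNK and the transcription factor AP-1 take part.

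Of 36963 genes in the deposited table, 20525 had a count in at least 1 IP library and 14804 passed the filter on low counts. The 3 manganese IP libraries held 24864934 to 28425552 gene counts, and the 3 control IP libraries 16683984 to 25872265. Control IP 3 stood apart: 56.88% of its fragments were aligned, against 83.7% to 87.12% in each of the other 11 libraries. Levels of genes between libraries of 1 group correlated at r = 0.901 to 0.932 in manganese IP and r = 0.88 to 0.947 in control IP, computed across genes on the log2 scale. The gene PCGF6 accounted for 34.28% to 41.77% of the counts in the 12 libraries. Levels below are CPM, the count of a gene scaled to a common library size with TMM factors, always listed for libraries 1, 2 and 3 of a group. CPM is a share of the library, so a change in the total RNA recovered with YTHDF2, fewer cells and less RNA per cell cannot be told apart from it. Changes are log2 values of manganese over control ± SE, and genes called higher or lower had a Benjamini-Hochberg adjusted p under 0.05 in edgeR's quasi-likelihood test. Whether replicates were separate cultures is not stated, and the p-values then cover only the spread among the sequenced libraries.

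The RNA recovered in the YTHDF2 IP differed in composition between manganese and control over much of the transcriptome. In the IP, 6350 of 14804 genes (42.9%) were called, 3020 higher (20.4%) and 3330 lower (22.5%). The median change was 1.76 among higher genes and -1.39 among lower genes, with -0.09 over all genes tested. Changes of at least 1 on the log2 scale were called higher in 2464 genes and lower in 2478, and of at least 2 in 1245 and 795 genes. All manganese IP libraries lay on 1 side of all control IP libraries in 7356 genes (49.7%), of which 5927 were called. From the 6 IP libraries alone 2438 genes were called higher and 2229 lower. The split between higher and lower calls depended on scaling. It was 2428 higher and 4335 lower with scaling to total counts, which moved the median of all genes by -0.28, and 2208 and 4050 on log2(TPM + 1), or 2205 and 4131 on log2(TPM + 0.1), where that median moved by -0.10 and -0.29. Control IP 3 was the highest control library in 1539 of the 3330 lower genes and the lowest in 1515 of the 3020 higher genes. Without control IP 3 and manganese IP 3, 3182 genes were called higher and 3189 lower.

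In the input, fewer genes passed the same test, 1678 higher (11.3%) and 537 lower (3.63%) of the same 14804. Of the 3020 genes higher in the IP, 1171 (38.8%) were also higher in the input and 11 were lower there, and those 1171 were 69.8% of the genes higher in the input. Of the 3330 genes lower in the IP, 436 (13.1%) were also lower in the input, and those were 81.2% of the genes lower in the input, while 51 were higher there. Across genes, which are not independent, IP and input changes correlated at r = 0.426 (Spearman rho = 0.476); no library is in both comparisons, but an IP and its input come from the same kind of lysate. The median absolute change was 1.03 in the IP and 0.52 in the input.

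**Figure D1:**
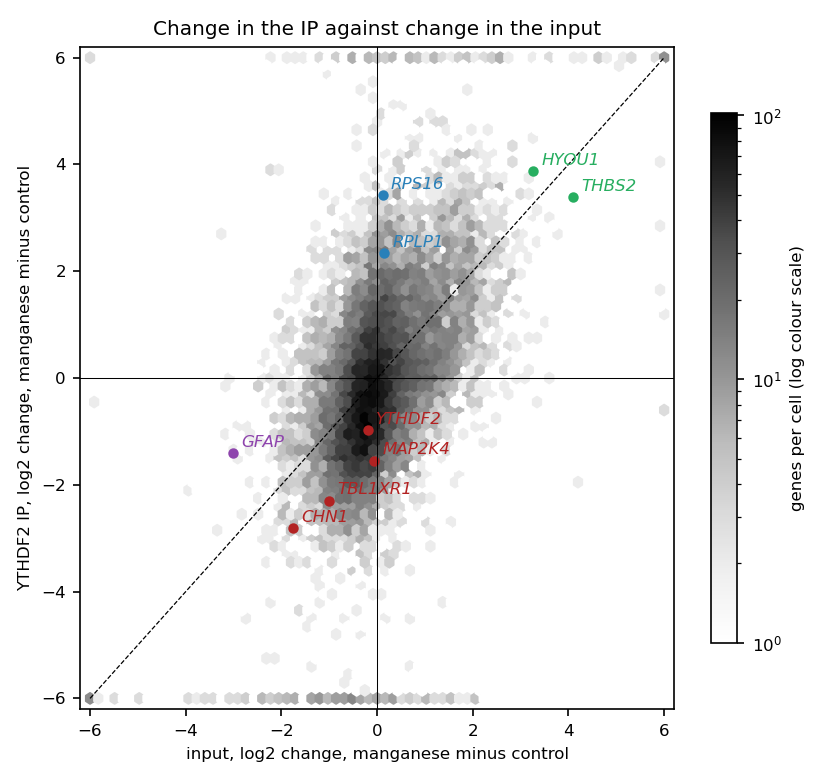
Each cell counts genes by their log2 change with manganese in the input (x axis) and in the YTHDF2 IP (y axis), with a logarithmic colour scale; the dashed line marks equal changes and values beyond 6 are drawn at the edge. HYOU1, an ER chaperone, and THBS2, a matrix glycoprotein, lie high on both axes, RPLP1 and RPS16 are high in the IP at an input change near 0, and MAP2K4 and YTHDF2 are low in the IP at an input change near 0.

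The genes that rose most were of several kinds. GPRC5A, an orphan receptor induced by retinoic acid, had 788, 670.1 and 849.7 CPM in the manganese IP libraries, against 10.3, 9.81 and 6.58 CPM in the control IP libraries. Its change was 6.43 ± 0.29 (edgeR adjusted p = 3.48e-08), with 5.73 ± 0.29 in the input. Every manganese IP library was far above every control IP library for GPRC5A. The smallest p of the comparison belonged to SLC7A5, the large neutral amino acid transporter, at 832, 769 and 898 CPM in the manganese IP libraries, against 44.1, 44.4 and 40.2 CPM in the control IP libraries. The control libraries of SLC7A5 were tight and its change was 4.28 ± 0.16 (edgeR adjusted p = 1.22e-08). IL11, a cytokine of the interleukin 6 family, rose by 5.69, PLAUR, the urokinase receptor, by 5.25, and COL6A2, a collagen VI chain, by 5.01. Genes that rose with the smallest p also included SLC1A5, a glutamine transporter (3.99), P4HA2, a collagen prolyl hydroxylase (4.74), CD151, a tetraspanin (4.26), ITGA5, a chain of the fibronectin receptor (3.81), and TMED9, a cargo receptor of the early secretory pathway (3.58). KRT16, CD320, BTBD2, COL13A1, VGLL2, CERS1, DEPP1, MFSD12, MED16 and LOX, the collagen-crosslinking lysyl oxidase, were also among the 15 largest rises. They averaged 10.6 to 31.4 CPM in manganese IP and 0.0288 to 0.861 CPM in control IP, too little in control for a firm fold.

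Genes that fell were also of several kinds. TBL1XR1, a subunit of nuclear receptor corepressor complexes, had 126, 117 and 91.1 CPM in the manganese IP libraries, against 642, 529 and 467 CPM in the control IP libraries. Its libraries did not overlap between groups and it fell, with a log2 change of -2.29 ± 0.17 (edgeR adjusted p = 5.58e-07), beside -1.01 ± 0.16 in the input. WDR26, a subunit of the CTLH ubiquitin ligase, had 111, 104 and 87.4 CPM in the manganese IP libraries, against 419, 399 and 430.3 CPM in the control IP libraries, a change of -2.05 ± 0.14 (edgeR adjusted p = 3.51e-07). CHN1, a GTPase-activating protein for Rac that had the smallest p among lower genes, showed 11.6, 10.1 and 12.8 CPM in the manganese IP libraries, against 82.7, 76.4 and 82.9 CPM in the control IP libraries. The libraries of each group lay close together for CHN1, and its change was -2.81 ± 0.18 (edgeR adjusted p = 2.23e-07), beside -1.76 ± 0.18 in the input. Other falls were in TPRG1 (-4.40), the homeobox gene PRRX1 (-2.54), SESN3, a sestrin (-1.96), FOXO1, a forkhead factor (-2.11), AMD1, which makes a precursor of polyamines (-2.48), FBXO32, a ubiquitin ligase subunit known from muscle wasting (-1.91), and HMGCS1, an early enzyme of cholesterol synthesis (-3.71). HMGCS1 had 4.37, 1.102 and 1.67 CPM in the manganese IP libraries, against 23.02, 22.1 and 49.2 CPM in the control IP libraries, with control IP 3 the highest library. BTBD3, FAM196B, MTMR4, BBS1, FOPNL, IPCEF1 and EHF, also among the 15 largest falls, averaged 0.0457 to 2.13 CPM in manganese IP and 9.71 to 39.2 CPM in control IP. Without control IP 3 and manganese IP 3, FAM196B was at -2.28 and MTMR4 at -2.07. Neither was called (-3.79 and -3.99) in a fit of the IP libraries alone with a replicate block.

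**Figure D2:**
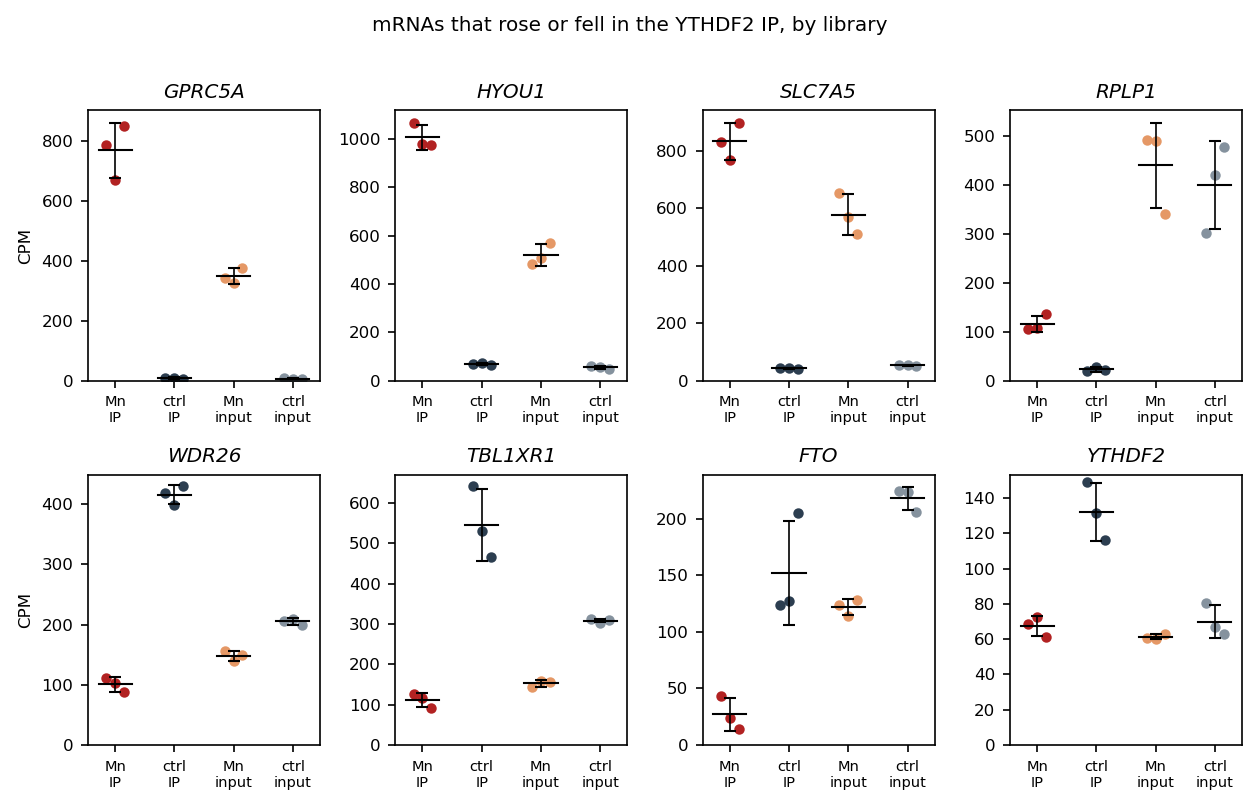
CPM of 8 mRNAs in each library of the 4 groups, manganese IP, control IP, manganese input and control input; points are libraries, lines are means and bars are SD (n = 3). GPRC5A, HYOU1 and SLC7A5 are high in both manganese groups, RPLP1 is higher in manganese IP than in control IP, and WDR26, TBL1XR1, FTO and YTHDF2 are lower in manganese IP than in control IP.

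In the JNK pathway, MAP2K4 and the JNK genes MAPK8 and MAPK9 fell in the YTHDF2 IP, and MAP3K11, MAP2K7, TAOK2 and MAPK8IP1 rose. MAP2K4 (ENSG00000065559), the kinase that phosphorylates JNK and p38, had 109, 96.8 and 66.3 CPM in the manganese IP libraries, against 271, 269 and 254 CPM in the control IP libraries. Every manganese library was below every control library. MAP2K4 fell, with a log2 change of -1.55 ± 0.18 (edgeR adjusted p = 1.91e-05). In the input it had 77.8, 79.1 and 66.1 CPM in the manganese inputs, against 75.2, 77.4 and 80.2 CPM in the control inputs, a change of -0.06 ± 0.18 with overlapping groups (edgeR adjusted p = 0.898). The difference between the IP and the input change was -1.48 ± 0.25 (edgeR adjusted p = 0.00245). MAPK8 (ENSG00000107643), which encodes JNK1, had 34.4, 24.96 and 24.1 CPM in the manganese IP libraries, against 58.5, 50.97 and 46.4 CPM in the control IP libraries. MAPK9 (ENSG00000050748), which encodes JNK2, had 11.8, 13.1 and 11.7 CPM in the manganese IP libraries, against 24.9, 20.9 and 24.8 CPM in the control IP libraries. Neither gene's groups overlapped, and the changes were -0.90 ± 0.21 for MAPK8 (edgeR adjusted p = 0.00309) and -0.95 ± 0.21 for MAPK9 (edgeR adjusted p = 0.00231). The difference from the input change was -0.54 ± 0.29 for MAPK8 (edgeR adjusted p = 0.229) and -0.84 ± 0.29 for MAPK9 (edgeR adjusted p = 0.0637).

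Among kinases upstream of MAP2K4, MAP3K7, known as TAK1 and a link to cytokine receptors, fell by 1.75 ± 0.17 on the log2 scale, MAP3K5, the stress kinase ASK1, by 2.12, MAP3K4 by 1.60 and MAP3K1 by 1.49. With control IP 3 left out, the change was -0.93 (edgeR adjusted p = 0.000836) for MAP3K4 and -0.76 (edgeR adjusted p = 0.0484) for MAP3K1, whose groups overlapped and which was not called (-0.71) without both control IP 3 and manganese IP 3. MAP3K11, a mixed-lineage kinase that also leads to JNK, moved the other way, at 52.2, 56.1 and 60.2 CPM in the manganese IP libraries, against 8.83, 13.1 and 12.6 CPM in the control IP libraries, a change of 2.29 ± 0.26 (edgeR adjusted p = 1.59e-05). MAP2K7, the second direct activator of JNK, rose by 1.38, TAOK2 by 1.62 and MAPK8IP1, the scaffold JIP1, by 1.59. On log2(TPM + 1), neither MAP2K7 (0.40) nor MAP3K4 (-1.17) was called. Of 29 measured members of the list of JNK kinases, their upstream kinases and scaffolds, 7 rose and 11 fell, 24.1% and 37.9%, against 20.4% and 22.5% of all genes tested, so that the share that rose was near that of all genes. The median was -0.21 in the IP, with 0.04 in the input, where 1 member rose and 0 fell. That median changed sign in 3 of 26 alternatives, among them the fit with offsets for transcript length (0.05) and the fit without control IP 3 and manganese IP 3 (0.02, 9 higher and 10 lower).

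**Figure D3:**
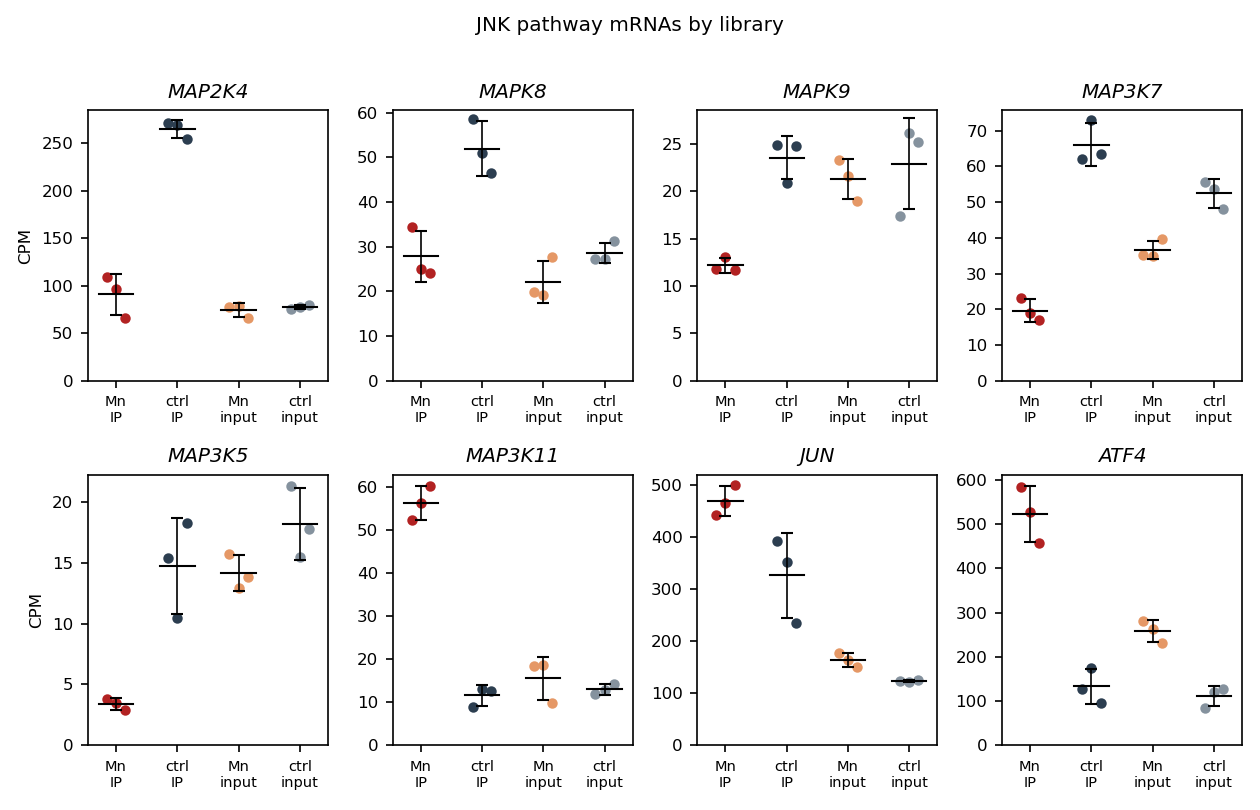
CPM of 8 JNK pathway and AP-1 mRNAs in each library of manganese IP, control IP, manganese input and control input; points are libraries, lines are means and bars are SD (n = 3). MAP2K4, MAPK8, MAPK9, MAP3K7 and MAP3K5 are lower in manganese IP than in control IP, and MAP3K11, JUN and ATF4 are higher.

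AP-1 and ATF transcription factors, part of which are nuclear targets of the pathway, mostly rose. Of 18 members, 11 rose (61.1%) and 2 fell (11.1%), against 20.4% and 22.5% of all genes tested. The median was 1.65 in the IP and 1.27 in the input. JUN, the main partner in AP-1, had 444, 466 and 502 CPM in the manganese IP libraries, against 393, 353 and 235 CPM in the control IP libraries, a change of 0.53 ± 0.18 (edgeR adjusted p = 0.029), with control IP 3 the lowest library. The change of JUN without control IP 3 was 0.33 (edgeR adjusted p = 0.0258), and with scaling to total counts 0.26 (edgeR adjusted p = 0.15); it was 0.14 and not called on log2(TPM + 1). JUND rose by 2.47, FOSL1 by 3.59, ATF3, a stress-induced repressor and activator, by 2.32, and the small MAF factors MAFK and MAFF by 4.27 and 2.30. ATF2, a direct JNK substrate, fell by 1.57, and ATF1 by 1.03, but ATF2 had overlapping libraries and a change of -0.77 (edgeR adjusted p = 0.102) without control IP 3. Phosphatases that switch off MAP kinases included DUSP1 (3.21), DUSP8 (3.38), DUSP5 (1.71) and DUSP4 (1.35) among 5 that rose, and DUSP16 (-2.08) and DUSP6 (-1.84) among 2 that fell, of 9. These shares were 55.6% and 22.2%, so the share of phosphatases that fell was near that of all genes tested. Without control IP 3, DUSP16 was at -1.03 (edgeR adjusted p = 0.0249) and DUSP6 at -1.37 (edgeR adjusted p = 0.143). DUSP6 lost its call also without manganese IP 1, 2 or 3 (-2.28, -2.20 and -1.34) and without control IP 2 (-1.99), and, with its value between -1.88 and -1.83, without manganese input 1, 2 or 3 or control input 2 or 3. Without control IP 3 and manganese IP 3, DUSP16 (-0.72), DUSP6 (-0.79) and ATF2 (-0.51) were not called. The median of the AP-1 and ATF list was 0.73 on log2(TPM + 1), with 9 members higher. The reason for that smaller median was not tested. The median of the phosphatases was 0.98, and 0.65 with scaling to total counts.

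The mRNAs of the m6A writers, erasers and readers were lower or not called in the manganese IP, except ALKBH5. YTHDF2 mRNA (ENSG00000198492) had 68.4, 72.4 and 61.03 CPM in the manganese IP libraries, against 149, 131 and 116 CPM in the control IP libraries. The groups did not overlap and the change was -0.97 ± 0.16 (edgeR adjusted p = 0.000238), beside -0.19 ± 0.15 in the input (edgeR adjusted p = 0.534). The difference between these changes was -0.78 ± 0.22 (edgeR adjusted p = 0.0269). Of 10 writer genes 6 fell (60%) and 0 rose, against 22.5% and 20.4% of all genes tested. Their median was -0.81 in the IP and -0.22 in the input. METTL14, the RNA-binding partner in the writer, had 8.28, 3.54 and 3.12 CPM in the manganese IP libraries, against 14.2, 15.6 and 16.4 CPM in the control IP libraries, a change of -1.62 ± 0.34 (edgeR adjusted p = 0.00169). The writer adaptor WTAP fell by 1.21, RBM15 by 0.92, the catalytic METTL3 by 0.69 and VIRMA by 0.57. Of the erasers, FTO had 43.1, 23.5 and 14.5 CPM in the manganese IP libraries, against 124, 128 and 205 CPM in the control IP libraries, and ALKBH5 had 460.3, 475 and 438 CPM in the manganese IP libraries, against 202, 213 and 179 CPM in the control IP libraries. The erasers thus moved apart, FTO by -2.49 ± 0.33 (edgeR adjusted p = 4.82e-05) and ALKBH5 by 1.21 ± 0.14 (edgeR adjusted p = 1.49e-05). Among 14 readers 4 fell, YTHDC2 (-1.78), ELAVL1 (-0.55) and IGF2BP3 (-2.65) beside YTHDF2, and 0 rose. The share of readers that fell, 28.6%, was near the 22.5% of all genes tested. IGF2BP3 was low, with a mean of 0.621 CPM in manganese IP and 3.95 CPM in control IP. The paralog YTHDF1 was not called at -0.18 ± 0.18 (edgeR adjusted p = 0.476), but was called lower without control IP 3 at -0.38 (edgeR adjusted p = 0.0186) and with scaling to total counts at -0.44 (edgeR adjusted p = 0.0291). Single libraries decided some of these calls: METTL3 was at -0.61 (edgeR adjusted p = 0.0535) without manganese IP 1 and -0.62 (edgeR adjusted p = 0.0603) without control IP 2, VIRMA at -0.53 (edgeR adjusted p = 0.0541) without manganese IP 2 and -0.17 on log2(TPM + 1), IGF2BP3 at -1.95 (edgeR adjusted p = 0.0783) without control IP 3, and ELAVL1 at -0.51, -0.40 and -0.53, each not called, without manganese IP 3, control IP 1 and control IP 2. The readers' median was -0.39, -0.21 without control IP 3 and manganese IP 3, where 1 reader was called higher, and -0.68 with scaling to total counts.

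Transcripts of the deadenylase complex that YTHDF2 recruits were in part lower in the manganese IP. Of 14 genes of CCR4-NOT and its adaptors, 7 fell (50%) and 0 rose, against 22.5% and 20.4% of all genes tested. The groups did not overlap in 4 of the 14, against 49.7% of all genes tested. The median was -0.97 in the IP and -0.06 in the input. CNOT1, the scaffold that YTHDF2 contacts, had 53.7, 59.7 and 28.5 CPM in the manganese IP libraries, against 102, 112 and 59.3 CPM in the control IP libraries, a change of -0.95 ± 0.29 (edgeR adjusted p = 0.0177), with overlapping groups. That call was lost without manganese IP 3 at -0.67 (edgeR adjusted p = 0.0506) and without control IP 2 at -0.77 (edgeR adjusted p = 0.071). The catalytic subunits CNOT7, CNOT6 and CNOT6L fell by 1.20, 1.28 and 1.00, and the adaptors TOB1 and BTG2 by 1.66 and 1.51, with overlapping groups for TOB1. Among 30 genes of later decay steps 6 rose and 9 fell, 20% and 30%, against 20.4% and 22.5% of all genes tested, which is near the background. DDX6, a helicase of P-bodies, had 108, 121 and 95.2 CPM in the manganese IP libraries, against 249, 217 and 532 CPM in the control IP libraries, a change of -1.62 ± 0.27 (edgeR adjusted p = 0.000342), or -0.97 without control IP 3 and manganese IP 3, and the decapping enzyme DCP2 and the exonuclease XRN1 fell by 1.32 and 1.32. Subunits of the exosome went up in part, EXOSC7 by 1.10. The median of these decay genes was 0.20 and changed sign in 6 of 26 alternatives, with -0.06 for scaling to total counts.

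Genes of endoplasmic reticulum (ER) folding mostly rose. These chaperones and enzymes fold secreted proteins, and the unfolded protein response induces them through ATF6 and XBP1. Of 26 members 20 rose (76.9%) and 0 fell, against 20.4% and 22.5% of all genes tested. The median was 2.26 in the IP and 2.18 in the input, where 21 rose. The 6 members below carry the ER stress element word, CCAAT and CCACG with any 9 bases between them, on either strand in the 300 bases around their annotated start (RefSeq, GRCh38.p14). They are shown because the word is the best known element of this response, with its 19 bases in capitals, written 5′ to 3′ on the gene's own strand.
HSPA5: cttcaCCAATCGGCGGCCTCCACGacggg
HSP90B1: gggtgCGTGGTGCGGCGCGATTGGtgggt
CALR: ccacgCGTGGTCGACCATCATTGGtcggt
CANX: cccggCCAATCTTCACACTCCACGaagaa
CRELD2: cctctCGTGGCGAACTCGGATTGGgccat
XBP1: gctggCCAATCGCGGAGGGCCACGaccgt
Their windows lie at chr9:125241386-125241414 (minus strand) for HSPA5, chr12:103930316-103930344 (plus) for HSP90B1, chr19:12938379-12938407 (plus) for CALR, chr5:179698773-179698801 (plus) for CANX, chr22:49918549-49918577 (plus) for CRELD2 and chr22:28800598-28800626 (minus) for XBP1.

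These 6 were all called higher. HSPA5, the main ER chaperone, had 4688, 3205 and 3756 CPM in the manganese IP libraries, against 366, 278 and 129.6 CPM in the control IP libraries. HSP90B1, the ER form of HSP90, had 2513, 2410 and 2640 CPM in the manganese IP libraries, against 329, 281 and 103 CPM in the control IP libraries. For both genes every manganese library was above every control library and control IP 3 was the lowest, with changes of 3.91 ± 0.34 for HSPA5 (edgeR adjusted p = 2.15e-06) and 3.41 ± 0.37 for HSP90B1 (edgeR adjusted p = 1.11e-05). The lectin chaperones CALR and CANX rose by 3.22 and 1.40, CRELD2 by 4.01 and XBP1, the transcription factor, by 1.35. A promoter was on record for 24 of the 26 members, so the word was in 25% of them, against 0.0806% of all 27305 promoters and 0.136% of the 10283 promoters of tested genes. Of the 18 without the word, 12 were called higher, among them HYOU1, an ER chaperone of the HSP70 family, and P4HB, a disulfide isomerase. HYOU1 had 1067, 977 and 976 CPM in the manganese IP libraries, against 70.3, 71.6 and 63.5 CPM in the control IP libraries, a change of 3.88 ± 0.16 (edgeR adjusted p = 1.65e-08), and P4HB rose by 4.26. A match is a description of the letters and no evidence that a factor bound there. The median of the list was 1.49 on log2(TPM + 1).

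The integrated stress response, in which ATF4 induces amino acid synthesis and transport, rose as well. Of 26 members 20 rose (76.9%) and 2 fell (7.69%), against 20.4% and 22.5% of all genes tested. The median was 1.80 in the IP and 1.31 in the input, where 19 rose and 1 fell. ATF4 had 586, 528 and 459 CPM in the manganese IP libraries, against 128, 175 and 95.9 CPM in the control IP libraries, a change of 1.98 ± 0.23 (edgeR adjusted p = 1.82e-05). Its targets DDIT3, TRIB3, CHAC1 and SESN2 rose by 2.12, 2.28, 3.93 and 3.86, and PHGDH, the first enzyme of serine synthesis, by 2.98. The secreted STC2 had 581, 565 and 576 CPM in the manganese IP libraries, against 37.1, 31.5 and 12.1 CPM in the control IP libraries, a change of 4.41 ± 0.33 (edgeR adjusted p = 5.58e-07). The members that fell were kinases of the translation factor eIF2, EIF2AK4 (-0.98) and EIF2AK1 (-0.73), while EIF2AK3, the ER-resident kinase, rose by 0.72, or 0.45 (edgeR adjusted p = 0.0605) with scaling to total counts, and was at 0.05 on log2(TPM + 1).

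Most matrix genes rose too. Of 29 collagens, matrix glycoproteins and collagen-modifying enzymes 24 rose (82.8%) and 0 fell, against 20.4% and 22.5% of all genes tested. The medians were 2.12 in the IP and 2.18 in the input. COL6A2 had 259, 334 and 413 CPM in the manganese IP libraries, against 4.94, 11.6 and 14.7 CPM in the control IP libraries, a change of 5.01 ± 0.38 (edgeR adjusted p = 6.95e-07), beside 2.09 ± 0.34 in the input. THBS2, a matricellular glycoprotein, had 333, 306 and 316 CPM in the manganese IP libraries, against 34.8, 34.8 and 21.6 CPM in the control IP libraries, and FN1, fibronectin, had 169.9, 144 and 191 CPM in the manganese IP libraries, against 22.6, 18.8 and 36.2 CPM in the control IP libraries. Both were higher in every manganese library, THBS2 by 3.39 and FN1 by 2.70, with 4.09 ± 0.20 and 3.82 ± 0.25 in the input. TNC, tenascin C, was not called in the IP at 0.07 ± 0.34 (edgeR adjusted p = 0.899) but rose in the input by 2.28 ± 0.36 (edgeR adjusted p = 0.00055), and the difference was -2.21 ± 0.49 (edgeR adjusted p = 0.00928). Without control IP 3, TNC was called higher in the IP at 0.66 (edgeR adjusted p = 0.0466). The IP median of the list was 1.16 on log2(TPM + 1).

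Glycolytic enzymes and targets of the hypoxia-inducible factors (HIF) rose in 19 of 29 cases (65.5%) and fell in 1 (3.45%), LDHA (-0.94). Of all genes tested 20.4% rose and 22.5% fell. The median was 1.67 in the IP and 1.24 in the input. CA9, a membrane carbonic anhydrase and a classic HIF target, had 615, 622 and 761 CPM in the manganese IP libraries, against 31.9, 31.2 and 14.1 CPM in the control IP libraries, a change of 4.69 ± 0.29 (edgeR adjusted p = 1.89e-07). ADM, NDRG1, ENO2, SLC2A1 and VEGFA rose by 3.53, 3.11, 3.00, 2.88 and 2.65, and each also rose in the input. GAPDH, often used as a constant reference, had 3171, 2747 and 2737 CPM in the manganese IP libraries, against 367, 598 and 408 CPM in the control IP libraries, a change of 2.66 ± 0.19 (edgeR adjusted p = 4.71e-07), though many processed copies of this gene can share its reads. The median of the list was 0.68 on log2(TPM + 1), with 16 higher and 3 lower.

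Most ribosomal protein mRNAs rose in the IP, and few were called in the input. Of 74 members 53 rose (71.6%) and 2 fell (2.7%), RPS15A and RPL13, against 20.4% and 22.5% of all genes tested. The median was 1.03 in the IP. In the input the median was -0.15, with 0 higher and 1 lower. Their summed level was 13560, 13680 and 15640 CPM in the manganese IP libraries, against 8289, 9167 and 4096 CPM in the control IP libraries. In the inputs it was 23000, 22900 and 20970 CPM with manganese, against 23600, 24590 and 25540 CPM in control. Control IP 3 was the lowest library of the IP, and without it and manganese IP 3 the median was 0.67, with 54 higher and 2 lower. These genes have many processed copies in the genome, which can share reads, so single values are uncertain. A hallmark of the family is the 5′ terminal pyrimidine run of its mRNAs. To show it, 4 members are printed with 10 bases before and 20 from the annotated start (RefSeq, GRCh38.p14), with the pyrimidine run in capitals.
RPS16: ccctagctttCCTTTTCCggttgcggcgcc
RPL35: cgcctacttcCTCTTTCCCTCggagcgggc
RPLP1: ggcgcgagagCCCCTTTCCTCagctgccgc
RPS3: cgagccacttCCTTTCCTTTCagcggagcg
The windows lie at chr19:39435930-39435959 (minus strand) for RPS16, chr9:124861938-124861967 (minus) for RPL35, chr15:69452808-69452837 (plus) for RPLP1 and chr11:75399508-75399537 (plus) for RPS3.

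RPLP1, of the ribosomal stalk, had 106, 108 and 135 CPM in the manganese IP libraries, against 19.1, 27.5 and 22.3 CPM in the control IP libraries. RPL35, of the large subunit, had 182, 240.3 and 281 CPM in the manganese IP libraries, against 25.2, 43.5 and 25.5 CPM in the control IP libraries. RPS16, of the small subunit, had 27.8, 42.01 and 43.3 CPM in the manganese IP libraries, against 3.38, 4.11 and 3.03 CPM in the control IP libraries. Groups did not overlap for RPLP1, RPL35 or RPS16, and the changes were 2.34 ± 0.23 for RPLP1 (edgeR adjusted p = 4.62e-06), 2.90 ± 0.27 for RPL35 (edgeR adjusted p = 3.39e-06) and 3.42 ± 0.31 for RPS16 (edgeR adjusted p = 2.65e-06). RPS3 rose by 1.67. The IP change exceeded the input change by 2.20 ± 0.31 for RPLP1 (edgeR adjusted p = 0.00143) and by 2.80 ± 0.36 for RPL35 (edgeR adjusted p = 0.00128). A run of a C and at least 4 more pyrimidines, starting within 5 bases of the annotated start, was found in 49 of the 59 members with a promoter on record and in 21.1% of all 27305 promoters. Since 59 of 74 members had a promoter on record, the count is void as a property of the whole list. Of the 49, 38 were called higher, and of the 10 without the run 5 were.

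Elongation factors partly moved with them. EEF2 had 1180, 1320 and 1553 CPM in the manganese IP libraries, against 707, 676 and 465 CPM in the control IP libraries, a change of 1.13 ± 0.21 (edgeR adjusted p = 0.000608), and EEF1G and EEF1D rose by 1.50 and 2.98. Besides EEF1D, the members with the smallest p were EIF4EBP1, EIF5A and EIF6, which rose by 4.07, 3.27 and 2.51. EIF4A2, an initiation helicase, fell by 1.71, and EIF4G2, EIF4B and EIF2S1 by 1.44, 1.19 and 1.28. Of 41 translation factors 14 rose and 10 fell, 34.1% and 24.4%, against 20.4% and 22.5% of all genes tested. Their median was 0.19 and reached 0 or changed sign in 4 of 26 alternatives, with 0.00 without control IP 3 and manganese IP 3.

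Nuclear-encoded subunits of the respiratory chain rose in 29 of 73 cases (39.7%) and fell in 3 (4.11%). Of all genes tested 20.4% rose and 22.5% fell. The median of these subunits was 0.64 in the IP and -0.13 in the input. NDUFA13, of complex I, had 71.6, 100.1 and 122 CPM in the manganese IP libraries, against 3.93, 12.6 and 10.5 CPM in the control IP libraries, a change of 3.44 ± 0.36 (edgeR adjusted p = 7.61e-06), while NDUFS1, the large core subunit of the same complex, fell by 1.35. NDUFS6, NDUFB11 and UQCRC1 rose by 2.66, 1.71 and 1.85. Without control IP 3 and manganese IP 3 the median was 0.28, with 30 higher and 9 lower, and with scaling to total counts it was 0.38, with 23 and 9. Of 13 mRNAs encoded in the mitochondrion 10 rose (76.9%) and 0 fell, with medians of 1.38 in the IP and 1.23 in the input. MT-ND1 had 1736, 1551 and 1710 CPM in the manganese IP libraries, against 623, 449 and 229 CPM in the control IP libraries, a change of 1.94 ± 0.28 (edgeR adjusted p = 0.000117). Control IP 3 was again the lowest library.

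Of 43 proteasome genes 15 rose (34.9%) and 1 fell (2.33%), against 20.4% and 22.5% of all genes tested. The member that fell, PSMD10 (-0.76), had overlapping groups. The list's median was 0.64 in the IP and 0.10 in the input. PSMD3, a lid subunit, had 242, 244 and 279 CPM in the manganese IP libraries, against 71.1, 89.3 and 55.1 CPM in the control IP libraries, a change of 1.83 ± 0.18 (edgeR adjusted p = 4.43e-06), and ADRM1, a ubiquitin receptor, rose by 2.86. The call of PSMD10 was lost without manganese IP 1 (-0.67), manganese IP 2 (-0.75), control IP 1 (-0.50) or control IP 2 (-0.68). The median was 0.30 without control IP 3 and manganese IP 3, with 17 higher and 3 lower.

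Of 23 genes, made up of NRF2, its inhibitor KEAP1 and NRF2 targets, which detoxify and buffer oxidants, 13 rose and 4 fell, the gene of NRF2 among those that fell. These shares were 56.5% and 17.4%, against 20.4% and 22.5% of all genes tested. The median was 0.94 in the IP and 0.11 in the input. HMOX1, heme oxygenase 1, had 86.7, 76.3 and 96.3 CPM in the manganese IP libraries, against 8.49, 8.86 and 7.93 CPM in the control IP libraries, a change of 3.36 ± 0.18 (edgeR adjusted p = 8.22e-08), beside 2.17 ± 0.17 in the input. TKT, of the pentose phosphate pathway, rose by 2.03, GSTP1, a glutathione transferase, by 2.60, and the ferritin chains FTL and FTH1 by 1.91 and 0.79. NFE2L2, which encodes NRF2 itself, had 40.3, 35.1 and 25.9 CPM in the manganese IP libraries, against 119, 116 and 109.9 CPM in the control IP libraries, a change of -1.77 ± 0.17 (edgeR adjusted p = 5.02e-06). GCLC and GCLM, of glutathione synthesis, and TXNRD1 fell by 1.30, 0.84 and 1.52. With control IP 3 left out, TXNRD1 was at -0.94 (edgeR adjusted p = 0.0202) and FTH1 at 0.45 (edgeR adjusted p = 0.00296), and FTH1 lost its call without manganese IP 1 (0.82) or manganese IP 3 (0.76), and at 0.79 without control input 1, 2 or 3. It was not called with scaling to total counts (0.55), on log2(TPM + 1) (0.51) or with length offsets (0.51), and it has near-identical copies that can share reads. The groups of TXNRD1 overlapped, and it was not called (-0.69) without control IP 3 and manganese IP 3. The median was 0.34 on log2(TPM + 1), with 8 higher and 6 lower.

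Among 16 genes of manganese and iron handling 5 rose and 2 fell, 31.2% and 12.5%, against 20.4% and 22.5% of all genes tested, with medians of 0.53 in the IP and 0.95 in the input. SLC39A14, a manganese and zinc importer, had 190.4, 204 and 241 CPM in the manganese IP libraries, against 93.3, 70.8 and 56.9 CPM in the control IP libraries, a change of 1.52 ± 0.22 (edgeR adjusted p = 0.000103). ATP13A2, a lysosomal pump linked to a form of parkinsonism, had 73.9, 73 and 89.9 CPM in the manganese IP libraries, against 4.94, 6.27 and 10.02 CPM in the control IP libraries, a change of 3.48 ± 0.24 (edgeR adjusted p = 3.4e-07). The members that fell were SLC40A1, the exporter ferroportin (-1.63), and IREB2, an iron sensor that binds mRNA (-1.56). Scaling to total counts gave a median of 0.27. Of 13 superoxide dismutases, catalase and peroxidases 6 rose (46.2%) and 3 fell (23.1%), with medians of 0.61 in the IP and 0.07 in the input. Among those that fell, SOD2, the mitochondrial enzyme that uses manganese, had 102, 91.9 and 78.4 CPM in the manganese IP libraries, against 189, 180.3 and 187 CPM in the control IP libraries. Its change was -1.03 ± 0.14 (edgeR adjusted p = 5.77e-05), beside 0.33 ± 0.14 in the input.

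Inflammatory mRNAs did not move as 1 group. Of 17 cytokines, chemokines and inflammatory enzymes 7 rose (41.2%) and 2 fell (11.8%), with medians of 1.61 in the IP and 1.52 in the input. CXCL8, a neutrophil chemokine, had 17.9, 23.3 and 14 CPM in the manganese IP libraries, against 4.48, 1.51 and 1.20 CPM in the control IP libraries, a change of 2.93 ± 0.47 (edgeR adjusted p = 0.000232), and LIF and TGFB1 rose by 2.83 and 3.27. CCL2, a monocyte chemokine, had 88, 108 and 134 CPM in the manganese IP libraries, against 320.5, 249.8 and 106 CPM in the control IP libraries, a change of -1.04 ± 0.31 (edgeR adjusted p = 0.0155), with overlapping groups and -0.71 (edgeR adjusted p = 0.0514) without control IP 1. The cytokine median was 1.04 without control IP 3 and 0.32 on log2(TPM + 1). In the NF-kB list 6 of 20 rose and 3 fell, 30% and 15%, against 20.4% and 22.5% of all genes tested, with a median of 0.37 that was 0.08 with scaling to total counts. CHUK, the kinase IKK alpha, had 9.31, 6.51 and 3.93 CPM in the manganese IP libraries, against 41.2, 34.8 and 88.5 CPM in the control IP libraries, a change of -3.05 ± 0.36 (edgeR adjusted p = 2.3e-05), with control IP 3 well above the other controls, and TAB2, an adaptor of TAK1, fell by 1.81. IRAK1, a kinase below the interleukin 1 receptor, rose by 2.09 and NFKB2 by 2.94. Of 32 interferon response genes 12 rose, IFITM3 by 1.98 and IFI6 by 3.57, and 6 fell, among them ADAR by 2.32, or by 0.85 without control IP 3. Of the interferon genes 37.5% thus rose and 18.8% fell. The interferon median was 0.21 and -0.08 with scaling to total counts, and it changed sign in 4 of 26 alternatives.

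Most zinc finger transcription factors fell. Of 392 tested genes named ZNF and a number, 221 fell (56.4%) and 15 rose (3.83%), against 22.5% and 20.4% of all genes tested. Their median was -1.29 in the IP. In the input 22 fell and 3 rose, with a median of -0.35. Their summed level was 6911, 6791 and 6456 CPM in the manganese IP libraries, against 13410, 12300 and 13430 CPM in the control IP libraries. The inputs held 4994, 4951 and 5110 CPM with manganese, against 6080, 5795 and 5869 CPM in control. The family is large, and near-identical members can share reads, so its single values are uncertain. The median stayed between -1.37 and -1.16 when 1 library was left out.

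**Figure D4:**
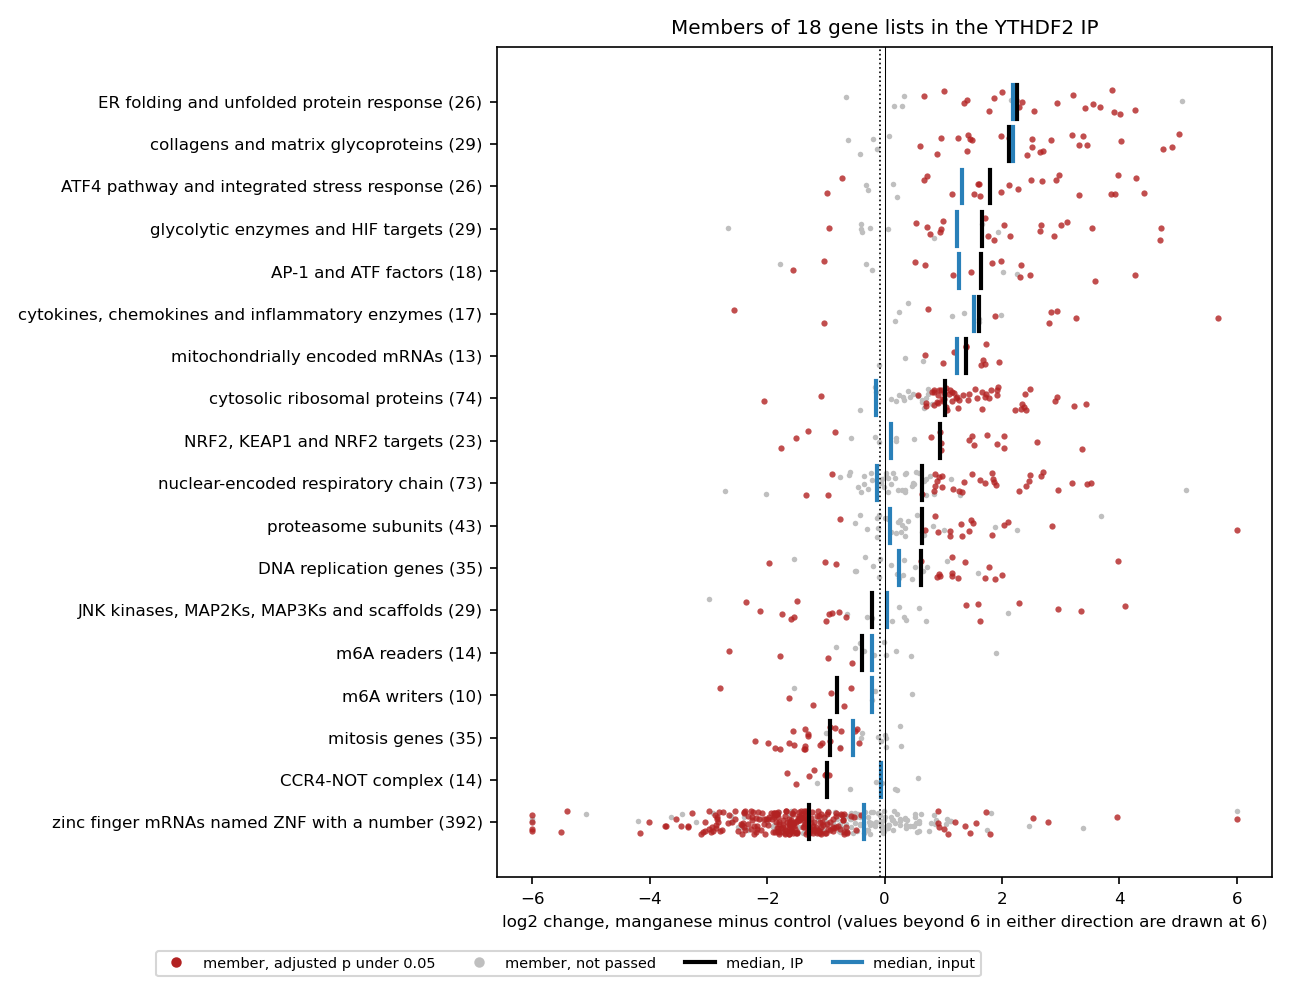
Log2 change with manganese in the YTHDF2 IP (x axis) for each tested member of 18 gene lists (rows, number of members in brackets); red points passed the test, grey points did not, black bars are IP medians, blue bars are input medians, the solid line is 0 and the dotted line is the median of all genes. ER folding genes lie highest with a median of 2.26, ribosomal proteins have a black bar at 1.03 and a blue bar at -0.15, and zinc finger genes lie lowest at -1.29.

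Mitotic genes mostly fell, and more replication genes rose than fell. Of 35 mitosis genes 23 fell (65.7%) and 0 rose, against 22.5% and 20.4% of all genes tested. Their medians were -0.93 in the IP and -0.55 in the input, where 9 fell. TOP2A, the topoisomerase of dividing cells, had 218, 192 and 157 CPM in the manganese IP libraries, against 661, 496 and 601 CPM in the control IP libraries, a change of -1.63 ± 0.19 (edgeR adjusted p = 1.89e-05). ECT2, which drives cytokinesis, CCNB1, cyclin B1, and BUB1, a checkpoint kinase, fell by 2.20, 1.56 and 1.98, with BUB1 at -1.26 without control IP 3 and manganese IP 3. MKI67, the proliferation antigen, was not called, at -0.12 ± 0.21 (edgeR adjusted p = 0.697), but was called higher, at 0.48 (edgeR adjusted p = 0.0235), with length offsets. Of 35 replication genes 14 rose (40%) and 3 fell (8.57%), with a median of 0.63, or 0.28 with scaling to total counts. CDC6, a licensing factor, had 88.2, 83.1 and 74.7 CPM in the manganese IP libraries, against 29.4, 24.9 and 20.8 CPM in the control IP libraries, a change of 1.71 ± 0.17 (edgeR adjusted p = 6.32e-06), FEN1 rose by 1.36, and MCM6 fell by 1.97.

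In the Hippo pathway, 8 of 20 genes fell (40%) and 2 rose (10%), AXL (1.78) and TEAD3 (1.40). YAP1, the coactivator the pathway restrains, had 137, 148 and 120.3 CPM in the manganese IP libraries, against 366, 322 and 296 CPM in the control IP libraries, a change of -1.28 ± 0.15 (edgeR adjusted p = 1.65e-05). Its paralog WWTR1, the partner TEAD1 and the kinase LATS1 fell by 1.10, 1.76 and 2.18. The median was -0.70, and -0.32 without control IP 3 and manganese IP 3. Of 33 mRNAs named in the literature as m6A-modified or bound by YTHDF2, 8 rose and 10 fell, 24.2% and 30.3%, against 20.4% and 22.5% of all genes tested, with a median of -0.21 that was 0.20 without those libraries and changed sign in 2 of 26 alternatives. CREB1 fell by 1.28 and MAT2A, the S-adenosylmethionine synthetase, by 1.17, but CREB1 was at -0.53 and not called on log2(TPM + 1).

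Markers of the labelled cell type were uneven. GFAP, the astrocyte filament, had 514, 666 and 708 CPM in the manganese IP libraries, against 1567, 2064 and 1373 CPM in the control IP libraries, a change of -1.41 ± 0.19 (edgeR adjusted p = 5.1e-05), and a change of -3.02 ± 0.20 in the input (edgeR adjusted p = 6.2e-07). NES, nestin of progenitor and glioma cells, had 4011, 4030 and 4351 CPM in the manganese IP libraries, against 685, 645 and 472 CPM in the control IP libraries, a change of 2.78 ± 0.18 (edgeR adjusted p = 2.23e-07). AQP4 was at 0 in all 6 IP libraries. SOX9, GLUL and S100B fell by 1.15, 1.25 and 1.43, while VIM was not called at -0.07 ± 0.16 (edgeR adjusted p = 0.761), or -0.35 (edgeR adjusted p = 0.0485) with scaling to total counts. Of 11 astrocyte markers tested 1 rose (9.09%) and 5 fell (45.5%), against 20.4% and 22.5% of all genes tested. The astrocyte list summed to 9222, 9018 and 9114 CPM in the manganese IP libraries, against 7572, 7863 and 5196 CPM in the control IP libraries. The sum was thus higher with manganese, though more members fell than rose. Of markers of other cells, AIF1, PTPRC, CX3CR1, P2RY12 and TYROBP of microglia, RBFOX3 and STMN2 of neurons, EPCAM of epithelium and MAG of oligodendrocytes were at 0 in all 6. CD68, a lysosomal protein also used as a macrophage marker, had 42.3, 39.7 and 39.7 CPM in the manganese IP libraries, against 2.66, 1.95 and 1.36 CPM in the control IP libraries. The summed microglia and macrophage list was 42.7, 39.95 and 39.7 CPM in the manganese IP libraries, nearly all of it CD68, against 3.72, 2.29 and 2.19 CPM in the control IP libraries. Other members of these lists were present. KRT18, a keratin of simple epithelia, had 34.6, 32.8 and 33.6 CPM in the manganese IP libraries, against 9.04, 12.1 and 5.12 CPM in the control IP libraries, a rise of 1.94, and its partner KRT8 rose by 1.57. MBP, the myelin basic protein, had 14.4, 18.01 and 16.1 CPM in the manganese IP libraries, against 48.8, 38.04 and 39.1 CPM in the control IP libraries, and MAP2, a microtubule protein of neurons, had 32.2, 36.02 and 33.6 CPM in the manganese IP libraries, against 89.6, 78.98 and 51.9 CPM in the control IP libraries. MBP fell by 1.37 and MAP2 by 1.11. TUBB3, a tubulin of neurons, was called higher at 1.50 with overlapping groups, a call lost without manganese IP 1 (1.16), manganese IP 3 (1.28), control IP 1 (1.38) or control IP 3 (1.24) and with scaling to total counts (1.23). CDH5, an endothelial cadherin, was not called at 31.7, 24.5 and 46.3 CPM in the manganese IP libraries, against 29.3, 35.9 and 33.4 CPM in the control IP libraries. The epithelial list summed to 41.5, 40.1 and 41.3 CPM in the manganese IP libraries, against 11.2, 15.04 and 7.31 CPM in the control IP libraries. The oligodendrocyte list summed to 14.99, 19.2 and 16.2 CPM in the manganese IP libraries, against 48.8, 38.2 and 39.5 CPM in the control IP libraries. The neuron list summed to 52.2, 50.01 and 63.9 CPM in the manganese IP libraries, against 104, 89.5 and 63.1 CPM in the control IP libraries. The endothelial list summed to 41.6, 33.2 and 58.5 CPM in the manganese IP libraries, against 40.1, 45 and 48.2 CPM in the control IP libraries. The part of these markers in other results was not tested.

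The change in the IP went with transcript length. Genes were divided into 10 equal groups by effective length. In the shortest group the median change was 0.26, with 21.5% called higher and 8.85% lower, and in the longest group it was -0.54, with 13% higher and 38.5% lower. In the input the medians were -0.09 in the shortest and -0.04 in the longest group. Across 14804 genes, Spearman's rho of length with the change was -0.149 in the IP and 0.0376 in the input, as a description. Ribosomal protein mRNAs are short, and with offsets that removed each library's trend with length their median was 0.75, with 45 higher and 3 lower. Zinc finger genes kept a median of -1.17 under those offsets, with 204 lower.

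**Figure D5:**
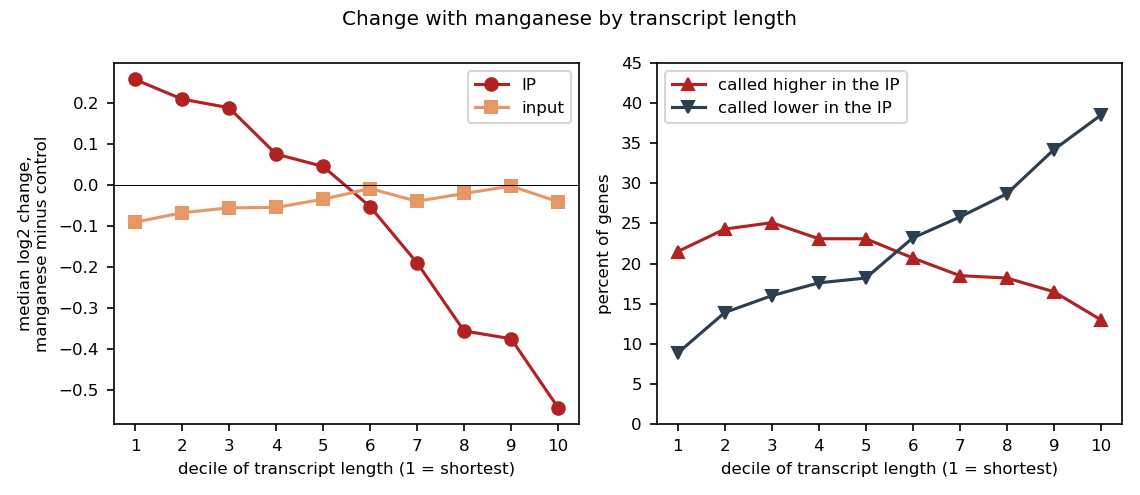
Genes in 10 equal groups by transcript length (x axis, shortest first). Left, the median log2 change with manganese in the IP runs down to -0.54 in the longest group, while the input stays near 0; right, the percent of genes called lower in the IP goes up to 38.5 and the percent called higher goes down to 13.

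Some genes were listed at 0 in every library of 1 IP group and had more than 3 counts over the other IP group. They were 251 in manganese IP (129 called) and 158 in control IP (84 called), and 42.9% of all genes tested were called. These genes were picked by their values in the same libraries, so the numbers called are a description only. UPF1, the helicase of nonsense-mediated decay, was listed at 0, 0 and 0 CPM in the manganese IP libraries, against 4.604, 6.44 and 30.2 CPM in the control IP libraries. HDGFL2 had 31.1, 37.1 and 38.1 CPM in the manganese IP libraries and was listed at 0, 0 and 0 CPM in the control IP libraries. Such zeros can be failed estimates of a program that divides reads among transcripts: of 5047 genes with a median over 20 CPM, 5, 6 and 10 were at 0 in the manganese IP libraries and 5, 3 and 5 in the control IP libraries, so no fold is given.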

How the data were processed

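RNA recovered with 10 µg of YTHDF2 antibody and input RNA, poly(A) purified from 2.5% of the lysate, were sequenced as stranded paired-end libraries, per the labels' protocols. Reads were quantified with kallisto on hg19, per the submitters' processing notes, with no version given. The authors deposited estimated counts per Ensembl gene, rounded to whole numbers, and TPM for the same genes. A deposited summary gives the authors' count of fragments and the percent aligned per library. Names came from the authors' table for 35185 genes and from the reference for 27, and 1751 had none. Sequences are from RefSeq.

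The estimated counts were tested with edgeR 4.0.16 (R 4.3.3): filterByExpr (minimum count 10, minimum total 15), TMM over 12 libraries, 1 mean per group, quasi-likelihood F test, Benjamini-Hochberg over 14804 genes, threshold 0.05. The same fit gave the input change and the difference between both changes. Genes in the text either were among the 15 largest changes or smallest p in a direction, of genes with an adjusted p under 0.05, a mean of at least 5 CPM and groups that did not overlap, or were list members named without these conditions, as the 4 smallest p of a list or for their role. The comparison and the 46 lists were chosen with earlier results of these data known. Alternatives used limma 3.58.1 and DESeq2 1.42.0, other scalings and filters, and fewer libraries. Depth sets the precision of low genes, and p-values cover these libraries only.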

Additional observations from a re-analysis of the deposited data

Results flagged for a closer look

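For MAP2K4 the log2 change in the IP was -1.55 ± 0.18 and in the input -0.06 ± 0.18, and the test of the difference, in the same edgeR fit, gave -1.48 (adjusted p = 0.00245). For YTHDF2 the changes were -0.97 ± 0.16 in the IP and -0.19 ± 0.15 in the input, and the difference was -0.78 (edgeR adjusted p = 0.0269). In both cases every manganese IP library was below every control IP library. Among MAP2K4, MAPK8, MAPK9, JUN and YTHDF2 these were the differences that passed. No group of 3 libraries was tested for outlying values. What sets the IP and input changes apart was not tested.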

How the results depend on the processing

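The count of 6350 called genes ran from 5576 to 6605 when 1 library was left out, with 2686 to 3143 higher and 2859 to 3462 lower. A fit of the 6 IP libraries with a replicate block called 3684 genes, 2044 higher and 1640 lower, and the same libraries without the block gave 2438 and 2229. With the replicate block in the fit of all 12 libraries 2862 and 3017 were called. Replicate numbers are not stated to pair libraries and were not taken as pairs. Deviations of same-numbered manganese and control IP libraries correlated at -0.0288, 0.00369 and -0.0422. Pairing of an IP with the input of the same number was not tested. DESeq2 called 3309 higher and 3715 lower, and offsets for length 2978 and 3300.

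Of 189 named genes that were put through the alternatives, 152 kept their direction and their side of the threshold in all 26. Genes that took another sign were not called in the comparison as reported, except TUBB3, at -0.029 on log2(TPM + 0.1). TNC was at -0.27 with total counts, -0.019 and -0.018 on log2(TPM + 1) and log2(TPM + 0.1), -0.33 with length offsets, and -0.24 to 0.66 with 1 library left out. MKI67 was at 0.48 and called higher with length offsets, 0.23 without control IP 3 and manganese IP 3, and -0.31 to 0.19 with 1 library left out. VIM ran from -0.22 to 0.047 with 1 library left out, and YTHDF1 was at 0.036 with length offsets. CDH5 was at -0.25 with total counts, -0.32 and -0.39 on log2(TPM + 1) and log2(TPM + 0.1), -0.17 without control IP 3 and manganese IP 3, and -0.23 to 0.23 with 1 library left out. The cause was not tested. Genes with few counts have wide errors, and control IP 3 has the fewest counts of all.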
